A study of Mus musculus with 12 samples.

Results

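The olfactory receptor genes (Olfr) and the 2 vomeronasal receptor families (Vmn1r and Vmn2r) are described here by where their RNA lay in growing mouse oocytes, in the nucleus or in the cytoplasm. The members are the entries of these families that reached 1 FPKM (fragments scaled by transcript length and by the mapped fragments of the library) in at least 2 of the 3 WT nucleus libraries. They were 87 of the 1444 Olfr, Vmn1r and Vmn2r entries (6.02%), in a table of 23235 gene entries. Of the 87, 71 were Olfr (of 1118), 12 were Vmn1r (of 201) and 4 were Vmn2r (of 125). Because WT nucleus values chose the members, every statement that rests on those values is a description with no test. Tests are given for 2 comparisons between groups that did not choose the members, though the estimate of the spread is shared by all 12 libraries, WT nuclei included.

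Day 14 oocytes from mice came in 2 genotypes, WT and Mtr4-null, and in 2 compartments parted by micromanipulation. The groups were the WT nucleus, WT cytoplasm, Mtr4-null nucleus and Mtr4-null cytoplasm, each with 3 libraries of total RNA depleted of ribosomal RNA, 10 nuclei or 10 cytoplasms to a library. MTR4 (Skiv2l2 in this table) is the helicase that hands nuclear RNA to the exosome for decay. The sources used here give no allele behind the null, Cre line, strain or number of mice. The design text speaks of duplicates where 3 libraries per group are labelled. P-values therefore cover the scatter of the libraries alone, which may be technical.

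Each mature olfactory sensory neuron makes 1 receptor, chosen from a gene family that lies in clusters on many chromosomes and is otherwise kept silent in heterochromatin. Olfactory receptors are coupled to the G protein subunit Gnal, the adenylate cyclase Adcy3 and a cyclic nucleotide gated channel. V1R and V2R receptors (Vmn1r and Vmn2r) work in the vomeronasal organ with Gnai2 or Gnao1 and the channel Trpc2. Members of these families arose by repeated duplication, so many have close copies and carry the same dispersed repeats, and short reads cannot always be given to 1 locus.

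The label of 1 library was in doubt. In WT nuclei Skiv2l2 had 6.06, 2.45 and 5.37 FPKM. Among the nuclei labelled Mtr4-null it had 7.98 FPKM in replicate 1, above every WT nucleus, and 0.182 and 1.12 FPKM in replicates 2 and 3. Its level was 19.4 to 21.1 FPKM in WT cytoplasm and 0.315 to 1.04 FPKM in Mtr4-null cytoplasm. Replicate 3 of these nuclei was deeper than the other nuclei, and its 13 oocyte markers summed to 13038 FPKM, where the WT nuclei had 4061 to 7866 FPKM and the cytoplasms 12580 to 18195 FPKM. The word labelled is therefore kept for these nuclei, and the main counts, the called members and the called genes of the lists are given with and without replicates 1 and 3. The 13 oocyte markers were each at 1 FPKM or more in all 12 libraries. The 14 granulosa markers summed to 9.01 to 41.2 FPKM and the 5 blood markers to 0.286 to 3.26 FPKM.

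Depth was low in nuclei. The entries of Olfr genes with an annotated length of 924 to 972 bases (699, by RefSeq length) had values in whole steps, since 1 fragment is worth a fixed FPKM in each library. All values of up to 6 steps lay within 0.1 step of a whole number. For 939 bases, their commonest length, 1 fragment in a WT nucleus was worth 0.568, 0.690 and 0.597 FPKM, and in a nucleus labelled Mtr4-null 0.672, 0.766 and 0.248 FPKM. In WT cytoplasm it was worth 0.0634 to 0.0987 FPKM and in Mtr4-null cytoplasm 0.0880 to 0.191 FPKM. In the WT nuclei the threshold of 1 FPKM thus stands for 1.45 to 1.76 fragments. The 37 members of this length had a median of 4, 3 and 5 fragments in the WT nuclei, so for most of the members counting error is large.

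In the WT nuclei 75, 55 and 76 of the 87 members were at 1 FPKM or more, a count the rule raises. In the nuclei labelled Mtr4-null the counts were 38, 14 and 27. In WT cytoplasm they were 15, 14 and 12, and in Mtr4-null cytoplasm 15, 13 and 18. The counts of the WT nuclei lay above those of all other libraries, while the nuclei labelled Mtr4-null overlapped both cytoplasms. The summed level of the members was 1375, 737 and 1279 FPKM in WT nuclei and 607, 221 and 465 FPKM in nuclei labelled Mtr4-null. It was 87.4 to 89.0 FPKM in WT cytoplasm and 63.9 to 80.2 FPKM in Mtr4-null cytoplasm. In this sum the 4 groups did not overlap. Of the FPKM of all entries, the RNA Scarna2 alone held 73.2 to 79.6% in WT nuclei, 58.0 to 81.7% in nuclei labelled Mtr4-null and at most 5.13% in cytoplasms. As a share of the FPKM of all entries, the members held 0.0466 to 0.0539% in WT nuclei, 0.0110 to 0.0412% in nuclei labelled Mtr4-null, 0.0186 to 0.0210% in WT cytoplasm and 0.0136 to 0.0189% in Mtr4-null cytoplasm. On that measure the WT nuclei were still above all other libraries, but the nuclei labelled Mtr4-null overlapped the cytoplasms.

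**Figure D1:**
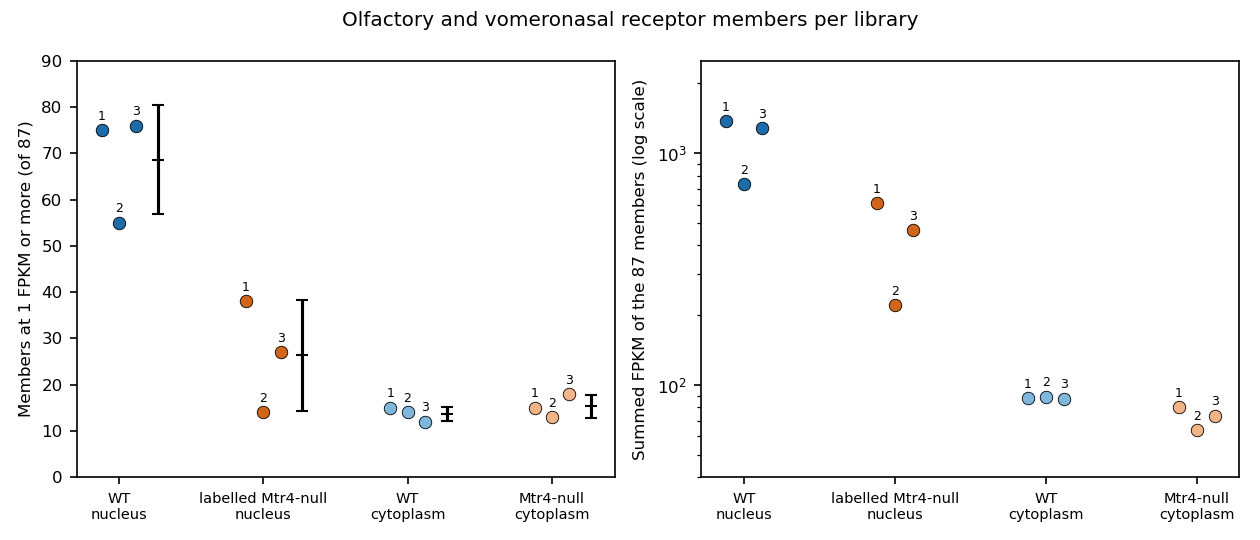
Left, members at 1 FPKM or more (of 87) in each library, with the mean and SD of each group (n = 3); right, summed FPKM of the 87 members on a log axis. Points are libraries with their replicate number; the WT nuclei sit at 737 to 1375 FPKM, the nuclei labelled Mtr4-null at 221 to 607 FPKM and the cytoplasms at 63.9 to 89.0 FPKM.

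Olfr856-ps1, Vmn1r58 and Olfr613 held 70.2 to 73.0% of the members' summed FPKM in WT nuclei and 66.0 to 71.0% in the nuclei labelled Mtr4-null. In WT cytoplasm they held 0.758 to 3.61%, and in Mtr4-null cytoplasm 6.10 to 15.2%. Without these 3 the sum was 373, 199 and 381 FPKM in WT nuclei, 176, 74.9 and 153 FPKM in nuclei labelled Mtr4-null, 84.6 to 88.4 FPKM in WT cytoplasm and 54.2 to 75.3 FPKM in Mtr4-null cytoplasm. In summed FPKM the order of the compartments in WT libraries is thus kept without the 3 loci, at a smaller distance. Replicate 2 of the nuclei labelled Mtr4-null then falls within the range of the cytoplasms. As a share of the FPKM of all entries the order is not kept. On that measure the remaining members held less in each WT nucleus than in each WT cytoplasm.

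Below the 3 leading loci the levels were low. The mean over WT nuclei was 10 FPKM or more for 10 members, 2 to under 10 FPKM for 33 and under 2 FPKM for 44, with a median of 1.99 FPKM. All 3 WT nuclei reached 1 FPKM for 32 members and exactly 2 did for 55, of which 26 members were listed at 0 in the third. Just inside the threshold lay Olfr697 (0, 1.80 and 1.04 FPKM) and Olfr420 (5.96, 0.603 and 1.04 FPKM). Just outside lay Vmn2r51 (1.77, 0.862 and 0.932 FPKM) and Vmn2r90 (0.875, 0.850 and 0.367 FPKM). In their second-highest WT nucleus value these members and the entries outside differ by less than the worth of 1 fragment on an Olfr entry.

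No test of a difference between the families was run. Of the 71 Olfr members, 26 reached 1 FPKM in all 3 WT nuclei, as did 4 of the 12 Vmn1r and 2 of the 4 Vmn2r members. In at least 2 of the nuclei labelled Mtr4-null, 15 Olfr (21.1%), 4 Vmn1r (33.3%) and 3 Vmn2r members (75.0%) did. In at least 2 WT cytoplasms 12 Olfr, 1 Vmn1r and 1 Vmn2r members did, and in Mtr4-null cytoplasm 12, 2 and 2. The highest of the 3 WT nucleus values was in replicate 1 for 34 members, in replicate 2 for 15 and in replicate 3 for 38. Replicate 2 was also the WT nucleus in which 1 fragment was worth the most FPKM, and it had 12 members listed at 0 against 7 in each of the other two.

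**Figure D2:**
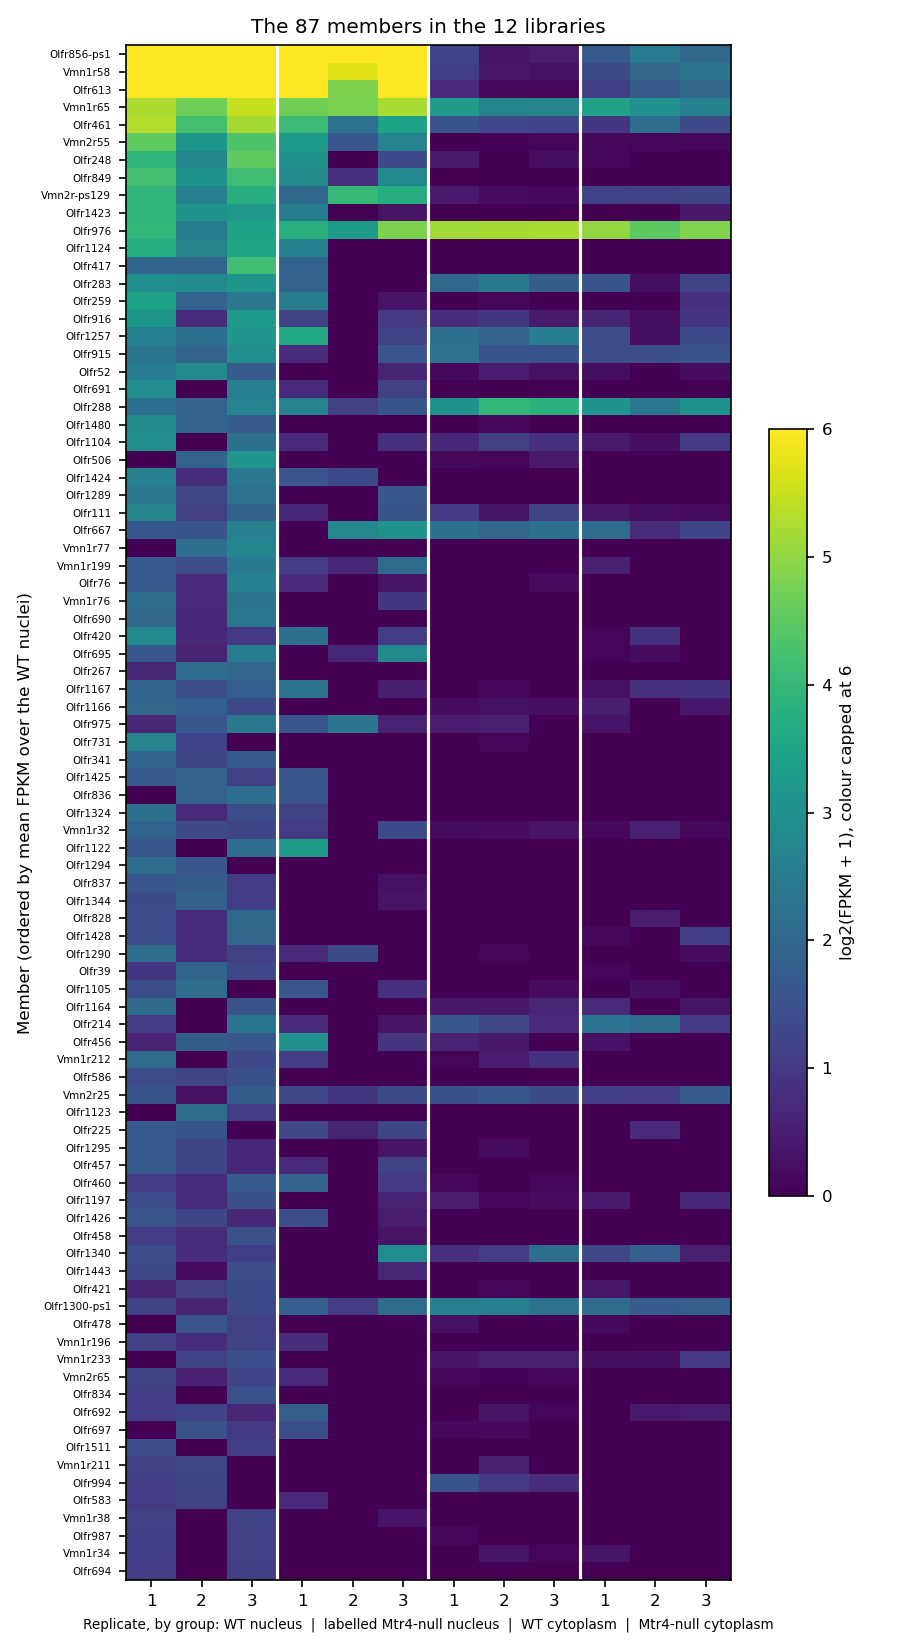
Each row is a member and each column a library, in the order WT nucleus, nucleus labelled Mtr4-null, WT cytoplasm and Mtr4-null cytoplasm; colour is log2(FPKM + 1), capped at 6. The first 3 rows are the brightest in the 3 WT nuclei, Olfr976 and Olfr288 are brighter in cytoplasm, and many of the lower rows are dark outside the WT nuclei.

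Olfr856-ps1, a transcribed olfactory receptor pseudogene on chromosome 9, had the highest level of any member. It stood at 464, 239 and 398 FPKM in WT nuclei, 199, 67.4 and 135 FPKM in nuclei labelled Mtr4-null, 1.31, 0.260 and 0.394 FPKM in WT cytoplasm and 2.25, 4.47 and 3.10 FPKM in Mtr4-null cytoplasm. All 6 nuclei were far above all 6 cytoplasms, and the nuclei labelled Mtr4-null lay below every WT nucleus. Vmn1r58, a V1R receptor gene on chromosome 7, stood at 305, 172 and 293 FPKM in WT nuclei, 139, 51.2 and 103 FPKM in nuclei labelled Mtr4-null, 1.17, 0.301 and 0.229 FPKM in WT cytoplasm and 1.49, 2.94 and 3.99 FPKM in Mtr4-null cytoplasm. Olfr613, an olfactory receptor gene of chromosome 7, stood at 234, 127 and 206 FPKM in WT nuclei, 94.1, 26.98 and 73.1 FPKM in nuclei labelled Mtr4-null, 0.678, 0.113 and 0.0835 FPKM in WT cytoplasm and 1.15, 2.27 and 2.95 FPKM in Mtr4-null cytoplasm. The 3 loci had the same order of groups.

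The ratios of the 3 loci to each other were taken within each nucleus. Olfr856-ps1 was 1.36 to 1.52 times Vmn1r58 over the WT nuclei and 1.31 to 1.43 times over the nuclei labelled Mtr4-null. Olfr613 was 0.505 to 0.530 times Olfr856-ps1 in WT nuclei and 0.400 to 0.540 times in nuclei labelled Mtr4-null. Relative to Vmn1r58, Olfr613 was 0.701 to 0.768 times over the former and 0.526 to 0.707 times over the latter. These are ratios within a library, which scaling of the library does not touch.

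The 3 loci differ in what other annotated transcripts resemble them, searched with BLAST in the GENCODE transcripts of GRCm38. A stretch of at least 200 bases at 85% identity or more was found in transcripts of 301 other genes for Vmn1r58, of which 207 lie outside the receptor families, and in 163 for Olfr613, of which 93 lie outside. For Olfr856-ps1 there was none, and its closest family copy had 70.8% identity over 783 bases. The transcripts searched differ in length, the longest having 10140 bases for Vmn1r58, 5139 for Olfr613 and 948 for Olfr856-ps1. A longer transcript has more room for such a stretch, and whether the annotation behind the FPKM holds these lengths is not given. Vmn1r58 and Olfr613 also share 529 bases at 92.4% identity, in opposite orientation. Values of Vmn1r58 and Olfr613 are therefore uncertain as to locus, and how fragments with several matches were used is not given in the sources used here.

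The start regions of the leading loci on chromosome 7 are shown from RefSeq (GRCm38.p6, 250 bases before to 50 after the annotated start), because these genes carry most of the members' nuclear RNA there. In Olfr613 (chr7:103550118-103550417, plus strand) the capitals mark TATAAA, sought at any place in the region. It lies well before the annotated start, and no role as a TATA box was tested. In Vmn1r58 (chr7:5413096-5413395, minus strand) and Vmn1r65 (chr7:6010961-6011260, minus strand) the capitals mark runs of at least 12 bases that both have, 42 bases in each.
Olfr613: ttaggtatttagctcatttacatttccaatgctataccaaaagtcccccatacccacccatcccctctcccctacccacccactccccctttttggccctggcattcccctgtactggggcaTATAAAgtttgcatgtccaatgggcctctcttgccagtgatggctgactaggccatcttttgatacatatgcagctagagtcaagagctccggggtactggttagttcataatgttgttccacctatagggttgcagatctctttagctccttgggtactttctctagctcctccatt
Vmn1r58: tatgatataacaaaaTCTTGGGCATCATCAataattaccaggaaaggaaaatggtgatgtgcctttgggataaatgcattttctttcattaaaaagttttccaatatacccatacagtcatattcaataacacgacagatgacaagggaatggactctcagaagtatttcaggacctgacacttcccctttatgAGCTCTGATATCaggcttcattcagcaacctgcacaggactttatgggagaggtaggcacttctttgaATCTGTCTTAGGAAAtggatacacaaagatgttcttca
Vmn1r65: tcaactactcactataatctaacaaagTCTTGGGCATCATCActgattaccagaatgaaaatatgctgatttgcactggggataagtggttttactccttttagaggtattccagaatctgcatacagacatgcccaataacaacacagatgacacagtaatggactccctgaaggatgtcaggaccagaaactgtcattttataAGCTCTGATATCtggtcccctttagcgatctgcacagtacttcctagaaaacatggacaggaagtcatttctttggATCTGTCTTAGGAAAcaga
A stretch of at least 100 bases of the Olfr613 region recurs at 85% identity or more in the promoters of 35 other genes of the 27025 in the RefSeq table, against 1 other gene for Vmn1r58.

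Over the members, 74 promoters of 72 genes were found in that table, beside 1272 promoters of the families and 32851 in all. TATAAA, the letters of a TATA box, was at any place and on either strand in 44.6% of member promoters, 39.5% of the families' and 13.6% of all. TAATTG and TAATTA, letters that homeodomain factors such as LHX2 bind, were in 13.5% and 17.6% of member promoters, against 20.7% and 16.6% in the families and 8.0% and 5.29% of all. CCCNNGGG, the core that EBF factors bind, was in 2.70% of member promoters, 4.17% in the families and 13.7% of all. A promoter can hold several of these, and their matches may overlap. The median GC content was 36.7% in member promoters, 35.7% in the families and 52.7% in all promoters.

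Next in level came 7 members with a mean of 10 to 35.0 FPKM over the WT nuclei. Vmn1r65, a V1R gene, stood at 37.1, 24.6 and 43.4 FPKM in WT nuclei and 24.99, 26.6 and 36.7 FPKM in nuclei labelled Mtr4-null, against 8.92, 5.57 and 5.69 FPKM in WT cytoplasm and 9.92, 7.23 and 5.17 FPKM in Mtr4-null cytoplasm. Its 2 sets of nuclei overlapped and lay above all cytoplasms. Olfr461 stood at 38.5, 17.9 and 35.7 FPKM in WT nuclei, 16.1, 3.82 and 10.1 FPKM in nuclei labelled Mtr4-null, 1.87, 1.45 and 1.33 FPKM in WT cytoplasm and 0.964, 3.41 and 1.62 FPKM in Mtr4-null cytoplasm. These were 68, 26 and 60 fragments in the WT nuclei, the highest fragment numbers among the 37 members of single-exon length there. Vmn2r55, the V2R gene with the highest level, stood at 22.0, 8.06 and 19.5 FPKM in WT nuclei, 8.33, 2.11 and 5.29 FPKM in nuclei labelled Mtr4-null and at most 0.101 FPKM in any cytoplasm. Its nuclei and cytoplasms did not overlap, and its closest copy, Vmn2r56, has 99.1% identity over 907 bases.

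Vmn2r-ps129, a transcribed V2R pseudogene of chromosome 17, departed from this order. It stood at 14.4, 5.13 and 12.7 FPKM in WT nuclei, 3.002, 15.2 and 12.3 FPKM in nuclei labelled Mtr4-null, 0.343, 0.157 and 0.104 FPKM in WT cytoplasm and 1.31, 1.22 and 1.39 FPKM in Mtr4-null cytoplasm. The nuclei labelled Mtr4-null spanned the WT nuclei, and the Mtr4-null cytoplasms all lay above the WT cytoplasms. Vmn2r-ps130 matches it at 99.7% identity over 2568 bases.

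Olfr849 stood at 17.6, 7.60 and 16.7 FPKM in WT nuclei and 6.07, 0.767 and 5.97 FPKM in nuclei labelled Mtr4-null, and it was listed at 0 in all 6 cytoplasms. In fragments these nuclei held 31, 11 and 28, and 9, 1 and 24. Its nuclear groups did not overlap. Olfr248 stood at 14.5, 5.67 and 22.3 FPKM in WT nuclei and 7.37, 0 and 1.59 FPKM in nuclei labelled Mtr4-null, with at most 0.361 FPKM in cytoplasm, and its neighbour Olfr417, at 94.8% identity over 930 bases, stood at 2.88, 2.80 and 16.9 FPKM in WT nuclei and 2.73, 0 and 0 FPKM in nuclei labelled Mtr4-null. Both had their highest value in WT nucleus replicate 3. Olfr1423 stood at 14.3, 7.66 and 8.43 FPKM in WT nuclei and 4.76, 0 and 0.251 FPKM in nuclei labelled Mtr4-null. Olfr1124 stood at 12.2, 5.39 and 10.5 FPKM in WT nuclei and 5.26, 0 and 0 FPKM in nuclei labelled Mtr4-null. For both, replicate 1 was the highest of the nuclei labelled Mtr4-null and lay below each WT nucleus in FPKM. For Olfr1124 it held 8 fragments, as many as WT nucleus replicate 2.

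The remaining members named for their WT nucleus level were low. Vmn1r77 had 0, 3.54 and 5.51 FPKM in the 3 WT nuclei, and the other 9 libraries were listed at 0. Vmn1r199 stood at 2.32, 1.69 and 4.39 FPKM in WT nuclei and 1.10, 0.627 and 3.25 FPKM in nuclei labelled Mtr4-null, and only 1 of 6 cytoplasms was above 0 (0.431 FPKM). Vmn2r25 stood at 1.94, 0.215 and 2.41 FPKM in WT nuclei, 1.47, 0.954 and 1.55 FPKM in nuclei labelled Mtr4-null, 1.75, 2.15 and 1.61 FPKM in WT cytoplasm and 1.15, 1.07 and 2.34 FPKM in Mtr4-null cytoplasm. Its 4 groups overlapped. Vmn2r65 had 1.25, 0.435 and 1.32 FPKM in WT nuclei and reached no more than 0.637 FPKM elsewhere. Olfr283 stood at 6.91, 6.29 and 7.86 FPKM in WT nuclei, 2.73, 0 and 0 FPKM in nuclei labelled Mtr4-null, 3.10, 4.37 and 2.41 FPKM in WT cytoplasm and 1.96, 0.193 and 1.35 FPKM in Mtr4-null cytoplasm, lower in both compartments of the libraries labelled Mtr4-null.

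**Figure D3:**
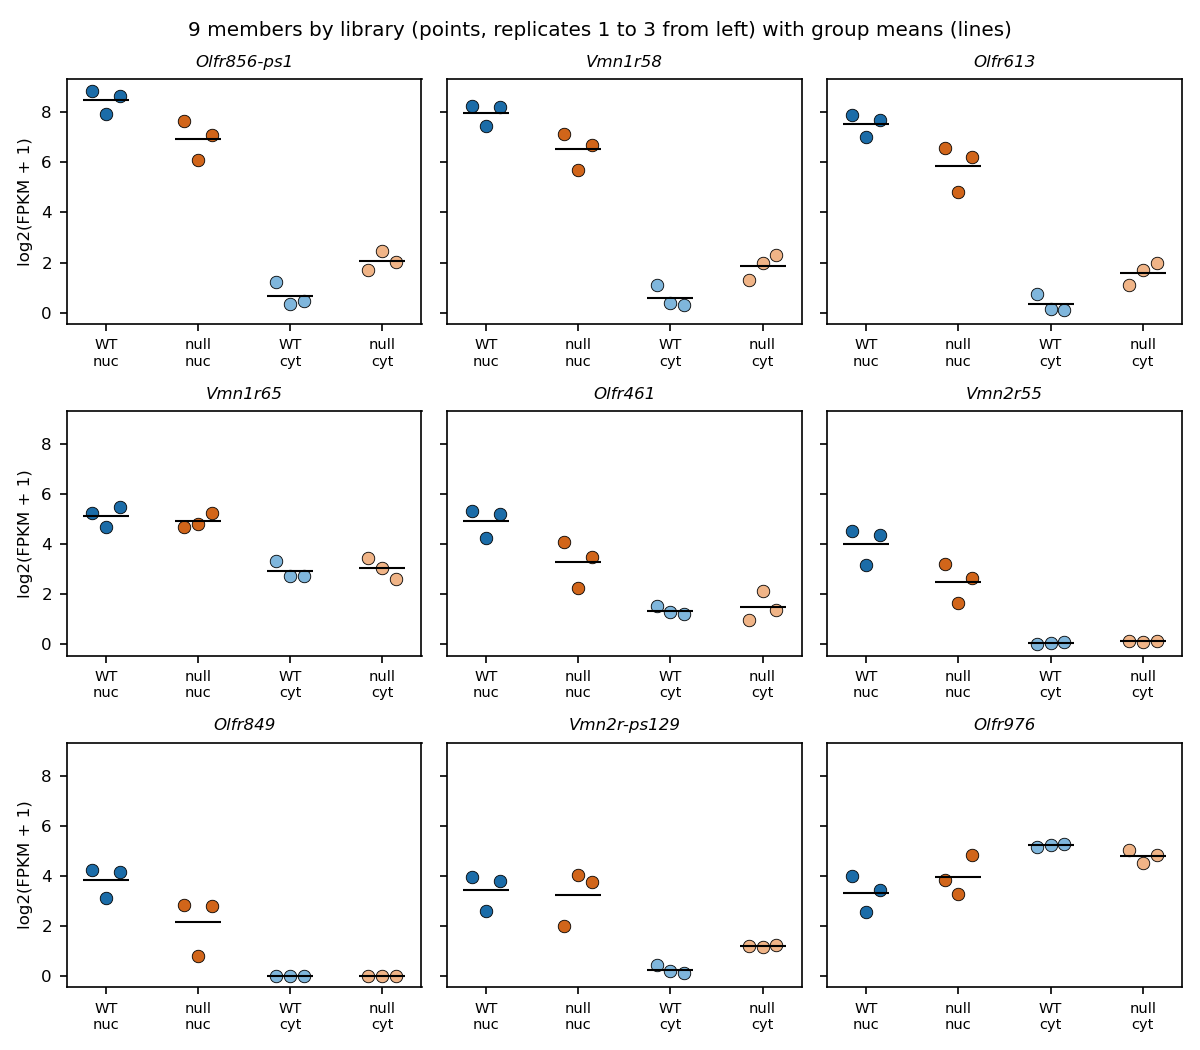
log2(FPKM + 1) of 9 members in each library (points, replicates 1 to 3 from the left) with group means (lines), for WT and labelled Mtr4-null nuclei (nuc) and cytoplasms (cyt). The 3 members of the top row lie highest in nuclei, and Olfr976 is the member of the 9 that lies highest in cytoplasm.

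Of the members, 3 were higher in WT cytoplasm than in WT nuclei without overlap in FPKM as deposited. Olfr976 stood at 14.7, 4.86 and 9.92 FPKM in WT nuclei and 13.1, 8.64 and 27.1 FPKM in nuclei labelled Mtr4-null, against 34.7, 36.4 and 37.0 FPKM in WT cytoplasm and 31.8, 21.6 and 27.6 FPKM in Mtr4-null cytoplasm. Each WT cytoplasm lay above each WT nucleus. Olfr975, the next family gene to it on chromosome 9, stood at 0.573, 2.09 and 4.21 FPKM in WT nuclei, 2.04, 3.87 and 0.501 FPKM in nuclei labelled Mtr4-null, 0.399, 0.448 and 0 FPKM in WT cytoplasm and 0.266, 0 and 0 FPKM in Mtr4-null cytoplasm. In WT the 2 neighbours thus had opposite orders of compartment in FPKM. For Olfr975 this rests on few fragments, 1, 3 and 7 in WT nuclei and 4, 7 and 0 in WT cytoplasm. In the libraries labelled Mtr4-null the compartments overlapped for Olfr976. Olfr288 stood at 3.56, 2.70 and 5.37 FPKM in WT nuclei, 5.27, 1.2 and 1.94 FPKM in nuclei labelled Mtr4-null, 7.47, 15.02 and 13.3 FPKM in WT cytoplasm and 7.54, 4.17 and 7.34 FPKM in Mtr4-null cytoplasm. Olfr1300-ps1, a transcribed pseudogene, stood at 1.23, 0.500 and 1.51 FPKM in WT nuclei, 2.44, 1.11 and 3.33 FPKM in nuclei labelled Mtr4-null, 4.97, 5.10 and 3.75 FPKM in WT cytoplasm and 3.34, 2.34 and 2.51 FPKM in Mtr4-null cytoplasm. Olfr976, Olfr288 and Olfr1300-ps1 are these 3 members. Their nucleus to cytoplasm differences of log2(FPKM + 1) in WT were -1.89, -1.39 and -1.45, where the median of all genes was -0.82, and -0.84, -0.43 and -0.73 with median-of-ratios scaling. In the libraries labelled Mtr4-null they were -0.82, -1.06 and -0.23, and with that scaling 0.06, -0.32 and 0.39, so the direction of Olfr976 and Olfr1300-ps1 turned there. Olfr667 stood at 2.15, 1.96 and 5.08 FPKM in WT nuclei and 3.65, 2.94 and 3.64 FPKM in WT cytoplasm, where the groups overlapped. At 1 FPKM or more in all 6 cytoplasms were 6 members, 66 were under 1 FPKM in all 6, and 29 were listed at 0 in all 6.

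The WT nuclei and the WT cytoplasms did not overlap, with the nuclei higher, for 50 of the 87 members (57.5%), where 15.2% of all 14021 genes tested did. The nuclei were lower without overlap for the 3 members named above, against 56.2% of all genes tested. The median difference between WT nucleus and WT cytoplasm was 1.26 on the log2(FPKM + 1) scale for the members and -0.82 for all genes tested. This contrast holds the values that chose the members, so it is a description.

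In the nuclei labelled Mtr4-null the members stood lower than in WT nuclei. The groups did not overlap for 28 members, lower in all 28 (7.24% of all genes tested were lower without overlap, and 5.91% higher), and the median difference was -1.02 for the members against 0.02 for all genes tested. A fall away from the libraries that chose the members is built into this contrast for members near the threshold. Taken against the mean of the WT nuclei, the members' median was -0.84, -1.26 and -0.97 in the nuclei labelled Mtr4-null replicates 1, 2 and 3. Replicate 2 alone, without replicates 1 and 3, thus gave -1.26, where the median of all genes tested was -0.51, so all genes were lower there too. In it 51 members lay below all 3 WT nuclei, 43 of them listed at 0, and 2 lay above. The shares of all genes below and above the WT nuclei in that replicate were not counted. Listed at 0 in all 9 libraries other than the WT nuclei were 10 members, such as Olfr690, Olfr267 and Olfr1294. Each library pools 10 nuclei or cytoplasms, so fewer nuclei that hold an RNA and less of it per nucleus cannot be told apart.

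In libraries that did not choose them, members were detected more often than the other entries of their families. In the nuclei labelled Mtr4-null, replicate 2 alone had 14 members (16.1%) and 8 of the 1357 other family entries (0.590%) at 1 FPKM or more. Over these nuclei, 22 of the 87 members (25.3%) were at 1 FPKM or more in at least 2 libraries, against 8 of the other entries (0.590%). In WT cytoplasm it was 14 members (16.1%) against 7 other entries (0.516%), and in Mtr4-null cytoplasm 16 members (18.4%) against 7. Of the 22, 10 reached 1 FPKM in all 3 nuclei labelled Mtr4-null, Olfr856-ps1, Vmn1r58, Olfr613, Vmn1r65, Olfr461, Vmn2r55, Vmn2r-ps129, Olfr976, Olfr288 and Olfr1300-ps1. The 5 highest by mean in these nuclei were Olfr856-ps1 (134 FPKM), Vmn1r58 (97.7 FPKM), Olfr613 (64.7 FPKM), Vmn1r65 (29.4 FPKM) and Olfr976 (16.3 FPKM).

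The first tested comparison asked whether the members lay in the nucleus also in oocytes labelled Mtr4-null. With limma on log2(FPKM + 1) and Benjamini-Hochberg adjustment over all 14021 genes tested, 10 of the 87 members were higher in nuclei labelled Mtr4-null than in Mtr4-null cytoplasm (11.5%; 3.82% of all genes tested were called higher), and 1 was lower (1.15%, against 23.8% of all genes tested). In a fit of these 6 libraries alone, where the WT nuclei do not enter the spread, 3 members were called higher and 0 lower. The groups did not overlap for the same 10 members called higher (6.08% of all genes tested were higher without overlap) and for 2 that were lower, Olfr214 and Vmn1r233 (33.8%). The median difference was 0.24 for the members and -0.77 for all genes tested, a gap of 1.01. The gap was 0.36 with median-of-ratios scaling and 0.37 with quantile normalization. In all 3 Mtr4-null cytoplasms 68 of the 87 members were under 1 FPKM, and 41 of these were listed at 0. Members at 0 there cannot be lower in the nucleus, so the floor limits how many could be called lower. The part of the floor in the gap between the medians was not tested. The members' median was 0 without the nucleus labelled replicate 1, without replicate 3 and without both. The gap in these fits was 0.69, 1.06 and 1.17, since the median of all genes lay below 0. Of the 87 members, 59 reach 1 FPKM in at least 3 of the 12 libraries, and the others passed the filter with 2 libraries, which the rule on WT nuclei alone supplies.

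The 3 leading loci had the largest differences. Olfr856-ps1 was higher in the nucleus by 4.88 ± 0.42 (SE; limma adjusted p = 1.37e-05) on the log2(FPKM + 1) scale, Vmn1r58 by 4.64 ± 0.42 (limma adjusted p = 2.04e-05) and Olfr613 by 4.26 ± 0.45 (limma adjusted p = 7.76e-05). Each was called in all 15 alternative fits, the adjusted p reaching at most 0.0387 for Olfr613, 0.0202 for Vmn1r58 and 0.0162 for Olfr856-ps1. In the nucleus with the least Skiv2l2, replicate 2, they stood at 67.4, 51.2 and 26.98 FPKM, where their highest value in a Mtr4-null cytoplasm was 4.47 FPKM.

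Among V1R and V2R members, Vmn2r55 was higher in the nucleus by 2.38 ± 0.43 (limma adjusted p = 0.00727), Vmn2r-ps129 by 2.05 ± 0.49 (limma adjusted p = 0.0324), Vmn1r65 by 1.87 ± 0.34 (limma adjusted p = 0.00752) and Vmn1r199 by 1.11 ± 0.37 (limma adjusted p = 0.0440). Among olfactory receptors, Olfr461 was higher by 1.78 ± 0.48 (limma adjusted p = 0.0366) and Olfr975 by 1.38 ± 0.46 (limma adjusted p = 0.0435). Olfr849 was called too (difference of log2(FPKM + 1) 2.15 ± 0.48, limma adjusted p = 0.0257), but its cytoplasms are all listed at 0 and the value is no fold. Vmn2r55 lost the call in 1 of 15 alternative fits and Vmn1r65 in 2, Vmn2r-ps129 in 5, Olfr849 in 6, Olfr461 in 7, and Olfr975 and Vmn1r199 in 9 each. Without the nuclei labelled replicates 1 and 3, Olfr461, Olfr849 and Vmn1r199 lost the call and the other members called higher kept it.

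Olfr214 was the member called lower. It stood at 0.653, 0 and 0.241 FPKM in nuclei labelled Mtr4-null and 3.83, 3.32 and 1.002 FPKM in Mtr4-null cytoplasm, without overlap, and differed by -1.45 ± 0.52 (limma adjusted p = 0.0498). Since the median of all genes was -0.77, it lay -0.67 from that median. Its call was lost in 13 of 15 alternative fits, among them the fit without the nuclei labelled replicates 1 and 3. Scaling by median of ratios moved the median of all genes to -0.02 and quantile normalization to -0.09. With these, 593 genes were called higher and 32 lower, and 386 higher and 97 lower, against 535 and 3342 in the values as deposited. The members called were then 9 higher and 0 lower in both.

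The fit without the libraries labelled Mtr4-null nucleus replicates 1 and 3 leaves 1 nucleus, assumed to vary like the other groups. In it the median difference was 0 for the members and -1.17 for all genes tested. Without replicate 1 alone, 6 members were called higher and 0 lower, and 250 and 63 of all 14021 genes tested. Without replicate 3 alone it was 11 and 3 members, and 671 and 7829 of all genes. Leaving out a Mtr4-null cytoplasm gave 5, 5 and 4 members higher for replicates 1, 2 and 3. Of all genes, 140, 147 and 148 were then called higher. In a fit of the 6 libraries alone, the calls were Olfr856-ps1, Vmn1r58 and Olfr613, with 67 genes called higher and 8 lower in all.

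**Figure D4:**
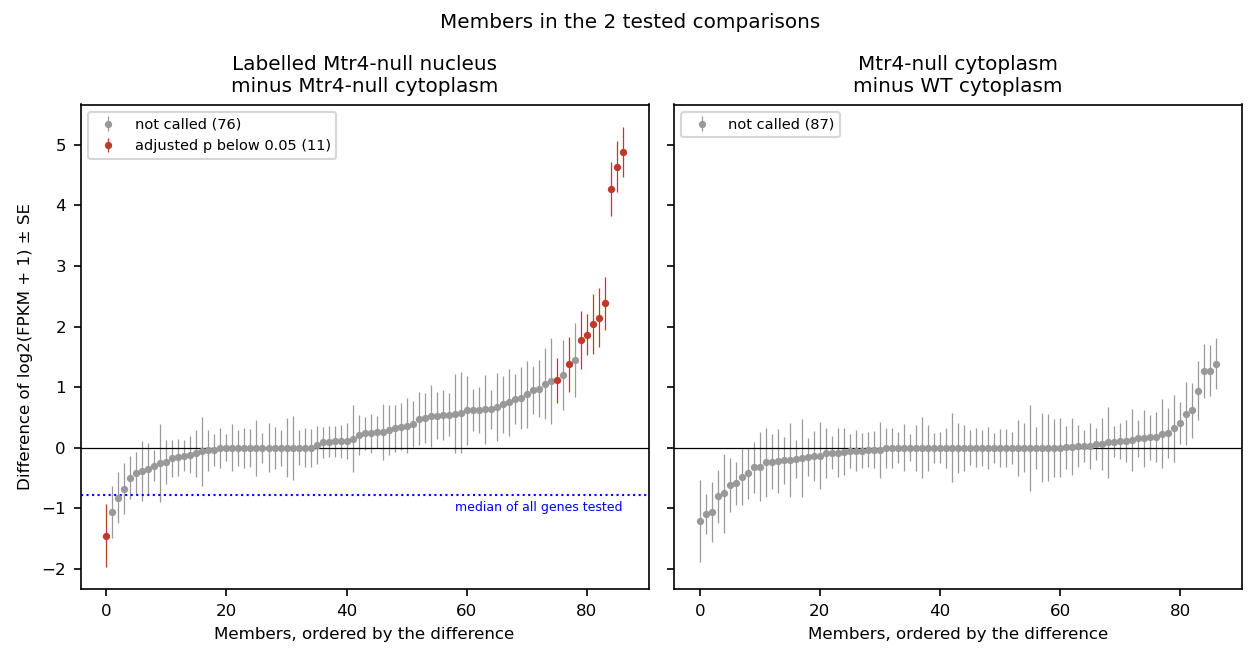
Difference of log2(FPKM + 1) with its SE for each member, ordered by size, between nuclei labelled Mtr4-null and Mtr4-null cytoplasm (left) and between Mtr4-null and WT cytoplasm (right); red marks a limma adjusted p below 0.05. On the left 11 members are called, 10 of them higher, and the dotted line is the median of all genes tested (-0.77); on the right none of the 87 is called.

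The second tested comparison asked whether the members' level in the cytoplasm differed between genotypes. It shares the Mtr4-null cytoplasms with the first. With limma 0 of 87 members were called, where 1.04% of all genes tested were called higher and 0.642% lower. At an unadjusted limma p below 0.05, 3 members were higher and 2 lower. The share of all genes past that threshold was not counted, so these counts are not read as a result. In the Mtr4-null cytoplasms 5 members were higher without overlap and 9 lower (22.2% and 20.2% of all genes tested). The 5 were Olfr856-ps1, Vmn1r58, Olfr613, Vmn2r-ps129 and Olfr1167. The floor limits these counts, since 70 members were under 1 FPKM in all 3 WT cytoplasms and 68 in all 3 Mtr4-null cytoplasms.

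Olfr856-ps1 differed by 1.39 ± 0.42 (limma adjusted p = 0.123), Vmn1r58 by 1.27 ± 0.42 (limma adjusted p = 0.165), Olfr613 by 1.26 ± 0.45 (limma adjusted p = 0.203) and Vmn2r-ps129 by 0.95 ± 0.49 (limma adjusted p = 0.488) on the log2(FPKM + 1) scale. Olfr994, named here because it had the smallest adjusted p, stood at 1.86, 1.01 and 0.695 FPKM in WT cytoplasm and was listed at 0 in all Mtr4-null cytoplasms (limma adjusted p = 0.119). In the fit of the 6 cytoplasm libraries alone, 3 members were called higher and Olfr994 lower. The 3 were Olfr856-ps1, Olfr613 and Vmn2r-ps129, at limma adjusted p-values of 0.0322, 0.0345 and 0.00386. Of all 14021 genes tested, 1729 were called higher and 1270 lower there, a larger share each way than of the members. Without the libraries labelled Mtr4-null nucleus replicates 1 and 3, the 3 called were Olfr856-ps1, Vmn1r58 and Olfr613, at limma adjusted p-values of 0.0225, 0.0388 and 0.0303. The cytoplasmic libraries themselves are the same in all these fits. Only the estimate of the spread and the other genes' tests change.

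The members lie near each other. All 87 were matched by name to RefSeq (GRCm38, used for names and gene order only). Neighbours were taken among the 1435 family entries matched this way, so other family genes that lie between them are skipped. The nearest family gene on at least 1 side was a member for 45 (51.7%), and members held 54 of their 172 neighbouring places (31.4%), while they are 6.02% of family entries. The 45 form 18 runs that are consecutive among these entries. The longest have 4 members each, Olfr1423, Olfr1424, Olfr1425 and Olfr1426 on chromosome 19 and Olfr1289, Olfr1290, Olfr1294 and Olfr1295 on chromosome 2. By chromosome, 20 of the 289 family entries on chromosome 2 were members (6.92%), 19 of 385 on chromosome 7 (4.94%), 11 of 133 on chromosome 9 (8.27%), 10 of 88 on chromosome 6 (11.4%) and 8 of 62 on chromosome 19 (12.9%).

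Runs and sequence copies overlap in part. For 13 of the 45 members in runs the closest family copy is in the same run, 11 of them at 90% identity or more. Olfr1424, Olfr1425 and Olfr1426 are such a case. Olfr1425 matches Olfr1426 at 95.8% identity over 920 bases, and Olfr1424 stood at 5.10, 0.688 and 4.16 FPKM in WT nuclei, Olfr1425 at 2.28, 2.77 and 1.199 FPKM and Olfr1426 at 1.99, 1.38 and 0.597 FPKM. All 3 were listed at 0 in the 6 cytoplasms. Over all members, 24 have a family copy at 95% identity or more over at least 500 bases, 19 at 90 to under 95% and 44 below that or none, so single values are uncertain for many.

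The lists of genes that work with the receptors are read against the 3.82% of all genes called higher and 23.8% called lower. Of 16 genes of receptor signalling, 9 passed the filter on low values, and 1 was higher and 2 lower in nuclei labelled Mtr4-null than in Mtr4-null cytoplasm, with a median difference of -0.44. Gng13, a G protein gamma subunit, was called higher (1.61 ± 0.52, limma adjusted p = 0.0423). It was listed at 0 in replicate 1 of these nuclei and in all 3 Mtr4-null cytoplasms, so the value is no fold, and at 5.37 and 3.48 FPKM in replicates 2 and 3. Gnai2 was lower by -1.23 ± 0.31 (limma adjusted p = 0.0349) and the phosphodiesterase Pde4a by -1.35 ± 0.37 (limma adjusted p = 0.0380). Of 20 genes of receptor trafficking and choice, 13 passed, 0 were called higher and 1 lower, the lamin B receptor Lbr (-1.25 ± 0.44, limma adjusted p = 0.0476), which tethers heterochromatin to the nuclear envelope. In the cytoplasm comparison 0 of either list were called. Without the nuclei labelled replicates 1 and 3 these 4 calls held, with differences of 2.67 for Gng13, -1.16 for Gnai2, -1.87 for Pde4a and -2.30 for Lbr (limma adjusted p = 0.000252, 0.00453, 0.00290 and 0.000230). Both lists then had calls beyond these as well. In the fit of the 6 libraries alone none of either list was called, and with median-of-ratios scaling Pde1c was the 1 gene called. This phosphodiesterase stood at 19.2, 8.33 and 19.0 FPKM in WT nuclei, 7.41, 3.34 and 6.26 FPKM in nuclei labelled Mtr4-null and 1.71 to 3.70 FPKM in cytoplasms (0.74 ± 0.39, limma adjusted p = 0.139; with that scaling 1.46 and 0.0147). It is named after its values were seen.

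Markers of the neurons that normally make these receptors were measured in the same libraries. The 12 markers of mature olfactory sensory neurons summed to 3.82 to 12.9 FPKM in WT nuclei, 5.87 to 7.57 FPKM in nuclei labelled Mtr4-null, 6.02 to 8.57 FPKM in WT cytoplasm and 5.08 to 6.69 FPKM in Mtr4-null cytoplasm, and 2 of the 12 reached 1 FPKM in at least 2 WT nuclei. These were the channel genes Ano2, at 5.95, 2.18 and 5.07 FPKM there, and Cnga4, at 5.33, 0.892 and 5.78 FPKM. The olfactory marker protein gene Omp had a 0 in each WT nucleus and reached at most 0.598 FPKM in any library, and Rtp2 and Cngb1 were listed at 0 in all 12. Of 5 vomeronasal neuron markers 4 reached 1 FPKM in at least 2 WT nuclei, and the list summed to 24.6 to 39.8 FPKM there, 30.7 to 64.4 FPKM in nuclei labelled Mtr4-null, 105 to 113 FPKM in WT cytoplasm and 78.1 to 112 FPKM in Mtr4-null cytoplasm. Trpc2, its channel, stood at 11.97, 2.32 and 11.6 FPKM in WT nuclei and 6.90 to 8.60 FPKM in cytoplasms, while Gnai2 and Meis2 made up most of the rest.

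Other chemosensory receptors were looked at in the same way. Of 59 Taar, Tas1r, Tas2r and Fpr entries 11 passed the filter, and 3 were higher in nuclei labelled Mtr4-null than in Mtr4-null cytoplasm and 0 lower, with a median difference of 0.36. The bitter taste receptor gene Tas2r137 stood at 27.3, 2.12 and 9.62 FPKM in nuclei labelled Mtr4-null and 0.243, 0 and 0.408 FPKM in Mtr4-null cytoplasm (3.02 ± 0.67, limma adjusted p = 0.0247). Tas2r108 was called (2.34 ± 0.73, limma adjusted p = 0.0412) and so was the trace amine receptor gene Taar7d (1.47 ± 0.47, limma adjusted p = 0.0423), though the 3 against 3 libraries overlapped for both. Without the nuclei labelled replicates 1 and 3 Taar7d kept its call (2.08, limma adjusted p = 0.000255), while Tas2r137 (1.37, 0.0977) and Tas2r108 (0.16, 0.835) lost theirs. In the fit of the 6 libraries alone all 3 lost it (limma adjusted p = 0.175), and with median-of-ratios scaling Tas2r137 alone kept it (0.00834). Of 3 multicopy families of other tissues, 4 of 52 Krtap entries passed with 0 called, 7 of 44 Defb entries passed with 1 called lower, Defb8, which was also called higher in Mtr4-null than in WT cytoplasm, and none of 20 Mup entries passed. Defb8 was listed at 0 in all 6 WT libraries and stood at 14.8, 19.2 and 13.6 FPKM in Mtr4-null cytoplasm.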

How the data were processed

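Total RNA of 10 nuclei or 10 cytoplasms per sample was sequenced in 12 libraries. The deposited table holds FPKM made by the authors; per the submitters' processing notes the tools were TopHat2 2.1.1 and Cufflinks 2.2.1 with mm9. For annotation, strand use and fragments with several matches, the method is not given in the sources used here. Such sharing can move value between near-identical genes.

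The members and all gene lists were chosen with earlier results of these data known. Tested were the 14021 entries that reached 1 FPKM in 2 or more of the 12 libraries, a filter every member passes. One limma fit (limma 3.58.1, R 4.3.3) with trend on log2(FPKM + 1) had 4 group means, and p-values are two-sided with Benjamini-Hochberg adjustment, called below 0.05. The pseudocount understates changes of low genes. The limma script was tested on simulated data. Fragment numbers were read from value steps. Sequence matches used BLAST 2.17.0. Alternatives were other pseudocounts, filters, scalings, a replicate block, library weights and left-out libraries. Named were the 10 Olfr, 4 Vmn1r and 4 Vmn2r members of highest WT nucleus mean, the called members, the 5 highest in nuclei labelled Mtr4-null and in cytoplasms, the 2 on each side of the threshold, and called genes of the lists.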

Additional observations from a re-analysis of the deposited data

How the results depend on the processing

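With the fit of the 2 groups only, pseudocount 0.1, no filter, median-of-ratios scaling, quantile normalization, library weights and the loss of nuclei labelled Mtr4-null replicates 1 and 3, members called higher in the nuclear comparison of Mtr4-null libraries were 3, 10, 7, 9, 9, 38 and 9 (10 as reported), and members called lower 0, 0, 0, 0, 0, 3 and 3 (1 as reported). All genes called were 75, 2885, 1201, 625, 483, 10166 and 8462 (3877 as reported). Leaving out 1 library each gave 4 to 11 members higher, 0 to 3 lower and 157 to 8500 genes in all. Under the replicate block there were 11 members higher, 1 lower and 5239 genes. In the cytoplasm comparison, members higher were 3 (2 groups only), 6 (weights) and 3 (without replicates 1 and 3), members lower 1 (2 groups only) and 6 (weights), and 0 in the other fits. All genes called there (236 as reported) were 2999 with the 2 groups only, 138 with pseudocount 0.1, 139 with no filter, 103 with quantile normalization, 4894 with weights, 1313 without replicates 1 and 3 and 45 to 70 without 1 library. Olfr667 turned from 0.57 to -1.30 with library weights, whose estimation stopped before its tolerance was reached. The replicate block changed no other call of a named member than that of Olfr248 (1.44, limma adjusted p = 0.0417 with the block, 0.0756 without). Deviations of same-numbered libraries correlated at 0.0418, 0.287 and 0.102 (nucleus and cytoplasm of Mtr4-null) and -0.109, -0.123 and 0.0589 (cytoplasms). Those of differently numbered libraries correlated at -0.208 to 0.149 and at -0.104 to 0.173. Deviations from a mean of 3 libraries are tied to each other. Whether the numbers pair the libraries cannot be told from these values.

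The median difference of the members between WT nucleus and cytoplasm was 3.21 with pseudocount 0.1 and 1.65 with median-of-ratios scaling (1.26 as reported; 1.15 to 1.32 without 1 library). Between nuclei labelled Mtr4-null and WT nuclei it was -2.45, -1.33 and, without replicates 1 and 3, -1.26 (-1.02 as reported, and -1.18 to -0.78 without 1 library). The median of all genes tested was -0.51 without replicates 1 and 3. The median count of family entries reached per library at 0.1 and 5 FPKM was 165 and 24 for WT nuclei, 79 and 4 for WT cytoplasm, 104 and 13 for nuclei labelled Mtr4-null and 74 and 3 in Mtr4-null cytoplasm. The members' summed FPKM relative to WT cytoplasm was 12.8 for the WT nuclei and 4.89 for the nuclei labelled Mtr4-null. As a share of the FPKM outside the 100 most abundant entries it was 24.1 and 9.09, and without the 3 leading loci, an alternative chosen after seeing the data, 3.67 and 1.56. As a share of the FPKM of all entries, also chosen then and with the 3 loci included, it was 2.495 and 1.33. The cause of these shifts was not tested. Depth limits low values, since 1 fragment in a WT nucleus is worth 0.568 to 0.690 FPKM on an Olfr entry.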
